A study of Mus musculus with 8 samples.

Results

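Succinate dehydrogenase, complex II of the respiratory chain, was followed at the transcript level in AML12 cells, a line derived from mouse hepatocytes, after 1 h in a pulsed weak magnetic field. The genes were taken by symbol: the 4 subunit genes Sdha, Sdhb, Sdhc and Sdhd and the 4 assembly factor genes Sdhaf1, Sdhaf2, Sdhaf3 and Sdhaf4. All 8 were present among the 55401 genes of each table and all 8 were abundant enough to be tested. The series held 8 dishes. In 4 dishes the cells received Opti-ELF-WMF for 1 h, given as 4 ms pulses whose frequency ran from 1 to 8 Hz, with a peak intensity of 100 mG. The other 4 were control dishes, kept with the stimulator switched off in another incubator of the same model, so that the field and the incubator cannot be told apart. The study's methods describe a single batch of cultured cells and copper plates above and below each dish in both conditions, so the spread between dishes measures repeat dishes of 1 line and not separate animals.

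Complex II is the only enzyme shared by the citric acid cycle and the respiratory chain, and all of its subunits are encoded in the nucleus. SDHA carries a covalently bound FAD and oxidizes succinate to fumarate, SDHB passes the electrons through iron-sulfur clusters, and SDHC and SDHD anchor the enzyme in the inner membrane, hold a haem between them and form the site where ubiquinone is reduced. The assembly factors act before the complex is complete: SDHAF2 helps attach FAD to SDHA, SDHAF4 binds the flavinylated SDHA, and SDHAF1 and SDHAF3 serve the insertion of iron-sulfur clusters into SDHB. The enzymatic activity of complex II under the field was one concern of the study.

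In the control dishes the 4 subunit transcripts summed to 544 ± 10.8 TPM (mean ± SD, n = 4), and in the exposed dishes to 587 ± 21.3 TPM (n = 4). TPM is an abundance per transcript length scaled to the same total in every dish. The mean of each subunit was higher in the exposed dishes, by 5.99% for Sdhd, 6.05% for Sdha, 7.10% for Sdhb and 15.8% for Sdhc. Of all 12122 genes tested, 63.7% were also higher on log2(TPM + 1), a share that changed with the scaling of TPM. No member passed the test. With limma on log2(TPM + 1) and Benjamini-Hochberg adjustment over all 12122 genes tested, 0 genes had an adjusted p under 0.05 (0%), and the smallest adjusted p among the members was 0.122, for Sdhc. Since RNA was taken from whole dishes, a higher share of cells with a transcript and more transcript per cell cannot be told apart.

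Sequence near the start of each gene is shown first, as a description of short motifs of factors known to act on nuclear genes of mitochondria. RefSeq windows on GRCm38.p6, of 250 bases before and 50 bases from the annotated start on, were found for 7 of the 8 members and gave no window for Sdhc. Distances here are from the RefSeq start, which differs from the outermost GENCODE start used for the gene positions given with each gene. It lies inside the GENCODE gene by 14 bases for Sdhaf3, 16 for Sdhaf4, 40 for Sdha, 68 for Sdhb, 933 for Sdhaf2 and 1520 for Sdhaf1, and 37 bases outside it for Sdhd. Both strands were searched for GCGCATGC (the core bound by NRF1), CCGGAAG (the core of ETS factors such as GABPA), GGGCGG (SP1), CCAAT and AAGATGGC (YY1). Matches to different motifs shared no bases, and 1 pair of SP1 matches in Sdhaf3 overlapped. The NRF1 core stood in the Sdhb window alone, 54 bases before the RefSeq start, whereas 2.71% of all 32851 windows held it. In the line that follows, the capitals mark the core, which reads on the reverse strand, with 11 bases on either side.
Sdhb, chr4:140961206-140961235, plus strand: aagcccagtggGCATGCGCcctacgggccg

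The ETS core stood in 5 of the 7 member windows (Sdhb, Sdhd, Sdhaf1, Sdhaf2 and Sdhaf3), against 8.86% of all windows. The 6 matches are printed with the core in capitals, each 5′ to 3′ on the strand of its gene, so that CTTCCGG is the core read on the opposite strand.
Sdhb, chr4:140961266-140961294, plus strand, 6 bases after the RefSeq start: gctcggagaaaCCGGAAGcggccttccac
Sdhd, chr9:50603878-50603906, minus strand, 46 bases before the RefSeq start: ccgtctcctgcCTTCCGGttcacgcttca
Sdhaf1, chr7:30322351-30322379, minus strand, 7 bases after the RefSeq start: tcggggcggtcCTTCCGGccagtgtgggg
Sdhaf2, chr19:10525350-10525378, minus strand, 158 bases before the RefSeq start: cccccgccctcCTTCCGGccccgccggcc
Sdhaf2, chr19:10525176-10525204, minus strand, 16 bases after the RefSeq start: ctcggttgcgcCTTCCGGcttggggtcca
Sdhaf3, chr6:6955880-6955908, plus strand, 127 bases before the RefSeq start: aatccgggtttCCGGAAGgacaagattct

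Genes with the ETS core were among those with higher means (Sdhb, Sdhd, Sdhaf2) and among those without (Sdhaf1, Sdhaf3), and the Sdha window had no match to it. No member passed adjustment and Sdhc had no window, and a link between motifs and differences was not tested. SP1 cores stood in 6 of the 7 windows, all but Sdha, against 35.7% of all windows. CCAAT stood in Sdha, Sdhb and Sdhaf1, against 37.4% of all windows. The YY1 core stood in 0 of the 7, against 2.75% of all windows. The member windows were richer in G and C, at 57.7% to 76.7%, than the median of 52.7% over all windows. The windows of Sdha, Sdhd, Sdhaf2 and Sdhaf3 also hold the start of a gene on the opposite strand. These are Ccdc127, Timm8b, Cpsf7 and Gm26774, at 69, 61, 57 and 118 bases from the RefSeq start. Matches in these windows are thus not particular to the member. The matches are descriptions of letters, and no binding was measured.

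Sdhc (GRCm38 chr1:171127165-171150603, minus strand, 6 exons, 169 residues), the larger membrane anchor, had the largest difference of the 8. Its control dishes read 91.2, 87.8, 83.9 and 93.45 TPM and its exposed dishes 101.2, 111.3, 101.7 and 98.5 TPM. Every exposed dish lay above every control dish, and 5.02 TPM separated the nearest pair. The mean went from 89.1 ± 4.17 to 103.1 ± 5.60 TPM (SD, n = 4 each), a log2 fold change of 0.21 with a standard error of 0.045 and a 95% interval from 0.11 to 0.31. The limma adjusted p was 0.122, and by unadjusted p the gene ranked 97 among the 12122.

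Sdhb (chr4:140961203-140979193, plus strand, 8 exons, 282 residues), the iron-sulfur subunit, read 121.7, 119.8, 117.7 and 125.2 TPM in control dishes and 126.7, 135.8, 127.6 and 128.6 TPM in exposed dishes. The groups did not overlap, but the lowest exposed dish stood only 1.52 TPM above the highest control dish. Its log2 fold change was 0.10 with an interval from 0.03 to 0.17 (limma adjusted p = 0.179).

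Sdhd (chr9:50596357-50603812, minus strand, 4 exons, 159 residues), the smaller anchor and the most abundant of the 8 transcripts, read 210.1, 209.4, 200.3 and 203.4 TPM in control dishes. In exposed dishes it read 217.2, 225.1, 218.9 and 211.2 TPM. Again no dish crossed over, and the gap was 1.10 TPM. Sdhd varied little between dishes of a condition: its within-condition SD of 0.036 on the log2 scale stood at percentile 8.34 of all genes tested. The log2 fold change was 0.08 with an interval from 0.02 to 0.15 (limma adjusted p = 0.192).

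Sdha (chr13:74322254-74350280, minus strand, 15 exons, 664 residues), the flavoprotein that binds succinate, was the subunit whose groups overlapped. Control dishes read 125.9, 127.2, 127.6 and 132.8 TPM, and exposed dishes 124.4, 145.5, 136.0 and 138.8 TPM. Exposed dish 1 was the lowest of all 8, while the other 3 exposed dishes lay above every control dish. The log2 fold change was 0.08 with an interval from -0.02 to 0.18 (limma adjusted p = 0.412). Without exposed dish 1 it was 0.12 (limma adjusted p = 0.170), and without exposed dish 2 it was 0.05 (0.688).

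**Figure D1:**
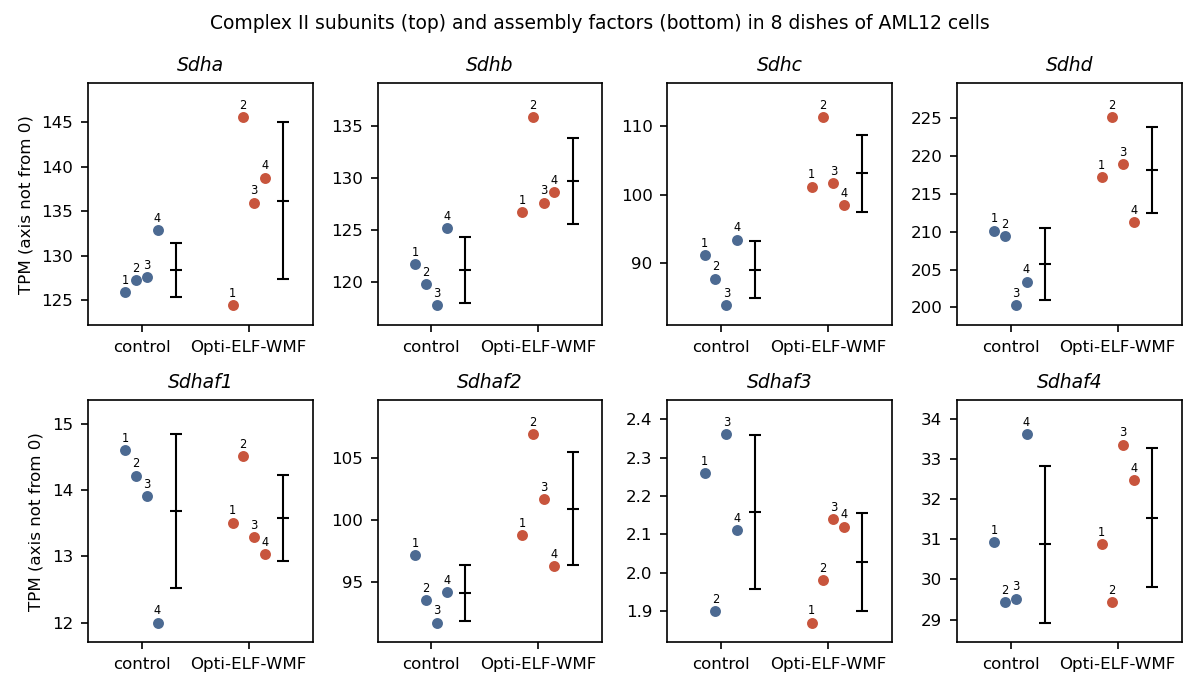
TPM of the 4 subunit genes (top row) and the 4 assembly factor genes (bottom row) in each dish, control in blue and Opti-ELF-WMF in red, numbered by replicate. Black marks give mean ± SD of 4 dishes and the vertical axes do not start at 0; for Sdhb, Sdhc and Sdhd every exposed dish lies above every control dish, and exposed dish 2 is the highest dish of all 4 subunits and of Sdhaf2.

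Among the assembly factors only Sdhaf2 had a higher mean of the size seen in the subunits. Sdhaf2 (chr19:10500534-10526142, minus strand, 4 exons, 166 residues), the factor for FAD attachment, read 97.2, 93.5, 91.7 and 94.2 TPM in control dishes and 98.8, 106.9, 101.7 and 96.3 TPM in exposed dishes. The groups overlapped by a single dish, exposed dish 4, which lay below control dish 1. The log2 fold change was 0.10 with an interval from 0.02 to 0.18 (limma adjusted p = 0.226).

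Sdhaf4 (chr1:23995939-24005656, minus strand, 3 exons, 104 residues), which binds flavinylated SDHA, ranged from 29.4 to 33.6 TPM in control dishes and from 29.4 to 33.4 TPM in exposed dishes. The ranges were nearly the same, and the log2 fold change was 0.03 with an interval from -0.09 to 0.15 (limma adjusted p = 0.837). Sdhaf1 (chr7:30321406-30323895, minus strand, 1 exon, 118 residues), the factor for iron-sulfur insertion into SDHB, ranged from 12.0 to 14.6 TPM and from 13.0 to 14.5 TPM. Its log2 fold change was -0.01 with an interval from -0.15 to 0.14 (limma adjusted p = 0.974). The lowest Sdhaf1 dish, control dish 4, was also the highest Sdhaf4 dish.

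Sdhaf3 (chr6:6956004-7042979, plus strand, 2 exons, 125 residues), which acts with SDHAF1, was close to the abundance limit. It read 2.26, 1.90, 2.36 and 2.11 TPM in control dishes and 1.87, 1.98, 2.14 and 2.12 TPM in exposed dishes. The groups overlapped widely and the log2 fold change was -0.06 with an interval from -0.24 to 0.13 (limma adjusted p = 0.787). These intervals span differences as large as those of Sdha, Sdhb and Sdhd, so they do not show that Sdhaf1, Sdhaf3 and Sdhaf4 behaved otherwise than the subunits.

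The members were then counted beside all genes. Sdhb, Sdhc, Sdhd and Sdhaf2, 4 of 8 members, were higher with an unadjusted limma p under 0.05, against 12.0% of all genes tested (1451 genes). None of the 8 was lower at that level, against 3.65% of all genes (443 genes). Sdhb, Sdhc and Sdhd, 3 of 8, had dishes that did not overlap and were higher, against 8.01% of all genes, and 0 of 8 were lower without overlap, against 1.86%. The median log2 fold change was 0.09 over the 4 subunits and 0.01 over the 4 assembly factors, beside 0.03 over all genes tested.

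Direction over all genes depended on how TPM was scaled. Transcripts of the mitochondrial chromosome held 8.69% to 9.42% of TPM in control dishes and 5.99% to 7.69% in exposed dishes. Exposed dish 2, the highest dish of all 4 subunits, had the lowest mitochondrial share. Rescaling TPM without mitochondrial genes and their nuclear copies moved the median of all genes to -0.02 and the non-overlapping higher share from 8.01% to 2.22%. Of the genes with an unadjusted p under 0.05, 76.6% were higher on deposited TPM, 47.1% after median-of-ratios scaling, 42.3% after upper-quartile scaling and 29.9% after that rescaling.

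Sdhc stayed apart under each of these scalings. Its log2 fold change was 0.18 after median-of-ratios scaling, 0.18 after upper-quartile scaling and 0.16 without mitochondrial genes, and its dishes did not overlap in any of them (limma adjusted p 0.206 to 0.230). Sdhb was 0.07, 0.06 and 0.05 in the same order, and its dishes overlapped in the last. Sdhd was 0.05, 0.05 and 0.04, Sdha 0.05, 0.05 and 0.03, and Sdhaf2 0.07, 0.06 and 0.05, with overlapping dishes in all 3. Thus 3 subunits were higher without overlap on deposited TPM, against 8.01% of all genes. After median-of-ratios or upper-quartile scaling 2 were, against 3.80% and 3.37% of all genes. Without mitochondrial genes 1 was, Sdhc, against 2.22%.

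**Figure D2:**
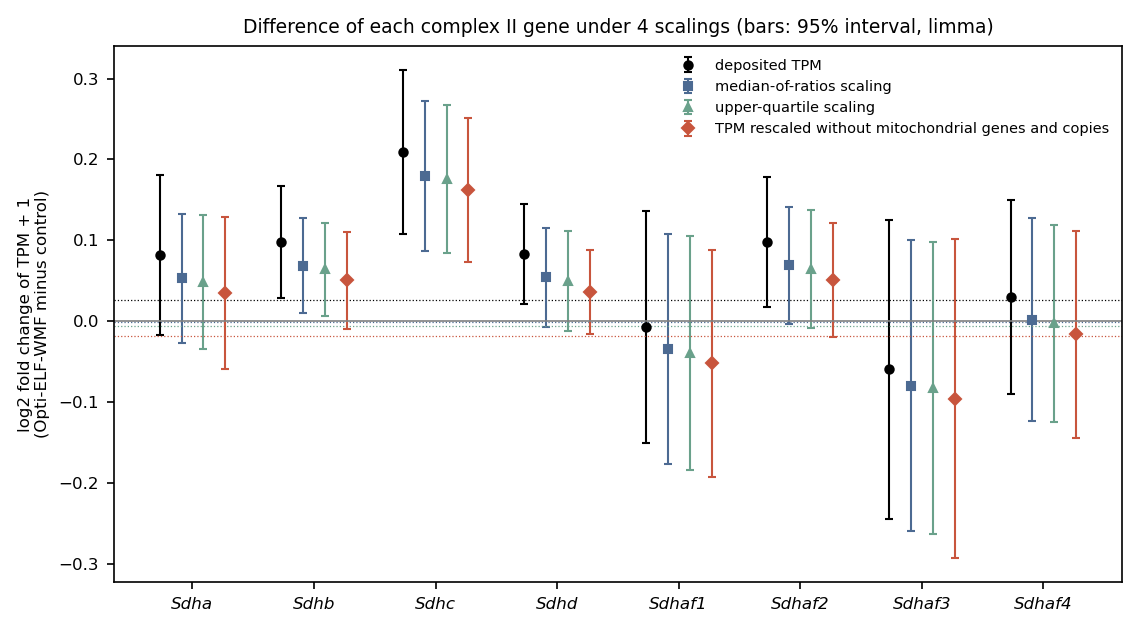
Log2 fold change of TPM + 1 (Opti-ELF-WMF minus control) for the 8 genes under 4 scalings, with 95% intervals from limma; dotted lines give the median of all genes tested under the scaling of the same colour. Only the intervals of Sdhc, at 0.16 to 0.21, lie above 0 under all 4 scalings.

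A ratio of 2 transcripts within a dish does not move with the scaling, so the 6 pairs of subunits were compared as log2 ratios, by exact two-sided permutation test with adjustment over the 6 pairs. The ratio of Sdhc to Sdhb lay between -0.49 and -0.42 in control dishes and between -0.39 and -0.29 in exposed dishes, without overlap. The difference of 0.11 had the smallest p that 4 dishes against 4 allow (exact p = 0.0286, adjusted p = 0.0857). Sdhc to Sdhd gave a similar picture: -1.26 to -1.12 in control dishes and -1.11 to -1.02 in exposed dishes, a difference of 0.13 (exact p = 0.0286, adjusted p = 0.0857).

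Sdhc to Sdha differed by 0.13 as well, but exposed dish 4 fell inside the control range (exact p = 0.0571, adjusted p = 0.114). The 3 ratios without Sdhc differed by 0.02 for Sdhb to Sdha, 0.01 for Sdhb to Sdhd and -0.0011 for Sdha to Sdhd (adjusted exact p 0.96 to 1). Sdhc thus made up 16.4 ± 0.452% of the subunit sum in control dishes and 17.6 ± 0.416% in exposed dishes (SD, n = 4 each). No ratio had an adjusted p under 0.05. Even at the smallest exact p, that level needs more than 3 of the 6 ratios, and only 3 hold Sdhc. The adjusted test could therefore not call a difference of Sdhc alone.

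**Figure D3:**
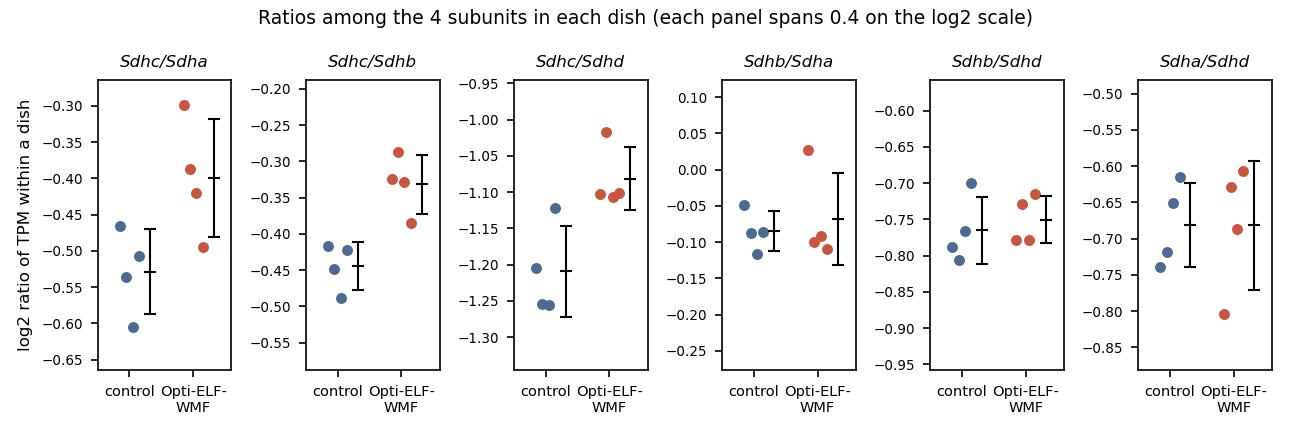
Log2 ratio of TPM within each dish for the 6 pairs of subunits, control in blue and Opti-ELF-WMF in red, with mean ± SD of 4 dishes in black; every panel spans the same width on the log2 scale. The ratios of Sdhc to Sdhb and to Sdhd do not overlap between conditions, and the 3 ratios without Sdhc overlap throughout.

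Per length, the order of the levels over the 8 dishes was Sdhd (mean 212 TPM), Sdha (132), Sdhb (125), Sdhaf2 (97.5), Sdhc (96.1), Sdhaf4 (31.2), Sdhaf1 (13.6) and Sdhaf3 (2.09). The dishes of Sdha and Sdhb overlapped, although Sdha was the higher in 7 of the 8 dishes, and exposed dish 1 was the exception. Sdhaf2 and Sdhc also overlapped, and their order turned with the condition: Sdhaf2 was the higher in all 4 control dishes and in 1 exposed dish. Every other neighbouring pair kept its order in all 8 dishes.

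Over the 8 dishes, Sdhb and Sdhc went together most closely (Pearson r = 0.974 on log2(TPM + 1), and 0.930 with the condition means taken away). Sdhd went with Sdhaf2 (0.946, and 0.878 without condition means), and Sdhc with Sdhaf2 (0.930 and 0.855). Sdha was less close to its partners, with 0.814 to Sdhb and 0.521 to Sdhd, and the latter was 0.146 without condition means. Sdhaf1 and Sdhaf4 went in opposite directions (-0.816 and -0.826). All values of a dish share its library and its scaling, and the 8 points of each correlation are the same dishes.

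Among 12114 other tested genes, the median r to the mean of the 4 subunits was 0.265, and 209 reached 0.9. The 5 closest were Cdc123 (0.990), an assembly factor of translation initiation factor eIF2, Ppm1g (0.985), a protein phosphatase, Tubb6 (0.981), a beta-tubulin, Psmd8 (0.979), a subunit of the proteasome lid, and Scarb2 (0.979), a lysosomal membrane protein. They were named for the likeness alone.

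Genes that start beside a member on the opposite strand, by GENCODE starts, had values nearer 0 than that member. Timm8b, an import chaperone of the mitochondrial intermembrane space whose start lies 98 bases from that of Sdhd, was at 176.3 ± 4.35 TPM in control dishes and 175.7 ± 2.43 TPM in exposed dishes. Its log2 fold change was -0.0044 with an interval from -0.06 to 0.05 (limma adjusted p = 0.959), an interval that overlaps that of Sdhd, and the 2 were not tested against each other. Ccdc127, 29 bases from the start of Sdha, was at 50.7 ± 2.7 and 52.5 ± 2.03 TPM (0.05, limma adjusted p = 0.649). Cpsf7, a subunit of the mRNA 3′ end cleavage factor whose start lies 876 bases from the GENCODE start of Sdhaf2 and 57 bases from its RefSeq start, differed by -0.0076 (limma adjusted p = 0.929).

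Gm26774, 104 bases from Sdhaf3, was listed at 0 in all dishes and Gm26524, 151 bases from Sdhaf4, reached at most 0.3 TPM. Reads of opposite strands can be mixed where the counting ignores strand, and the setting was not given in the sources used here. E130208F15Rik overlaps 1733 of the 2490 exon bases of Sdhaf1 on the other strand and was listed at 0 in every dish, so the level of Sdhaf1 is uncertain. A search of the transcripts found no near-identical copy of the 4 subunits, Sdhaf3 or Sdhaf4, and 35 short genes matching Sdhaf2 over at most 121 bases, all listed at 0.

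The enzymes and carriers on either side of succinate gave 8 positive log2 fold changes among 9 tested, against 63.7% of all genes. At an unadjusted p under 0.05, 4 were higher and 0 lower, against 12.0% and 3.65% of all genes. None passed adjustment, and the median was 0.07. Rescaled without mitochondrial genes, 7 were positive against 39.4% of all genes, and 2 were higher with p under 0.05 against 3.31%. Suclg2, a subunit of the succinyl-CoA ligase that makes succinate, was at 98.5 ± 2.12 TPM in control dishes and 107.3 ± 2.78 TPM in exposed dishes, without overlap (0.12, limma adjusted p = 0.122). Aldh5a1, the dehydrogenase that makes succinate from the GABA shunt, differed by -0.05 (limma adjusted p = 0.787). Sucnr1, the succinate receptor, and Acod1, which makes the succinate dehydrogenase inhibitor itaconate, were below the abundance limit.

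Pathways that supply the cofactors of complex II came next. Of 15 genes of iron-sulfur cluster assembly, 4 were higher and 0 lower at an unadjusted p under 0.05 (all genes 12.0% and 3.65%), with a median of 0.05. The 4 included Fdx2, the ferredoxin of cluster synthesis (0.11, limma adjusted p = 0.134), and Isca2, a later-acting factor, differed by -0.05 (0.622). Without mitochondrial genes in the scaling, 1 of the 15 was higher and 0 lower, against 3.31% and 7.77% of all genes. Of 4 tested genes of riboflavin uptake and FAD synthesis, 0 passed in either direction (all genes 12.0% and 3.65%, list median 0.05), and Slc25a32, the mitochondrial carrier linked to FAD, was at 0.09 (limma adjusted p = 0.533).

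Of 8 genes of haem synthesis, 1 was higher and 1 lower at that unadjusted level, against 12.0% and 3.65% of all genes (list median 0.02). These were Alad, the enzyme that makes porphobilinogen (0.12, limma adjusted p = 0.122), and Ppox, the protoporphyrinogen oxidase (-0.21, 0.223). Of 13 genes of ubiquinone synthesis, 3 were higher and 0 lower, against the same shares (list median 0.04). Without mitochondrial genes in the scaling, 0 were higher or lower, against 3.31% and 7.77% of all genes. Coq7, a hydroxylase, was at 0.13 (limma adjusted p = 0.215) and Coq4 at -0.17 (0.517).

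Of other routes by which electrons reach ubiquinone, 7 genes were tested, with a list median of 0.07. At an unadjusted p under 0.05, 1 was higher and 0 lower, against 12.0% and 3.65% of all genes. This was Etfa, a subunit of the electron transfer flavoprotein, at 0.07 (limma adjusted p = 0.194). Without mitochondrial genes in the scaling Etfa was at 0.03 (limma adjusted p = 0.756) and its dishes overlapped. Prodh, proline dehydrogenase, was at -0.02 (limma adjusted p = 0.928). The 3 mitochondrial proteins reported to act on complex II, the chaperone Trap1 and the deacylases Sirt3 and Sirt5, gave 0 in either direction (median 0.04), with Sirt5 at 0.13 (limma adjusted p = 0.583) and Sirt3 at -0.07 (0.706). Of 10 tested targets of HIF, a factor that succinate can stabilize, 2 were higher and 1 lower, against the same shares (list median 0.02). The glycolytic Pgk1 was at 0.11 (limma adjusted p = 0.122) and the growth factor gene Vegfa at -0.18 (0.194). Without mitochondrial genes in the scaling, 1 of the 10 was higher and 2 lower, against 3.31% and 7.77% of all genes (list median -0.02).

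Nuclear subunits of the other complexes had smaller medians than the 4 subunits of complex II. The median was 0.05 over 37 subunits of complex I, 0.05 over 9 of complex III and 0.03 over 12 of complex IV, beside 0.09 for complex II, and these medians were not tested against each other. At an unadjusted p under 0.05, 9 of 37, 3 of 9 and 1 of 12 were higher and 0 were lower in each, against 12.0% and 3.65% of all genes. Without mitochondrial genes in the scaling, 0 of 37, 1 of 9 and 0 of 12 were higher and 2, 0 and 2 lower, against 3.31% and 7.77% of all genes. The medians were then -0.0016, 0.0011 and -0.02, beside 0.04 for complex II. Their leading members were Ndufa5 (0.14, limma adjusted p = 0.193), Uqcrc2 (0.10, 0.131) and Cox6a1 (0.08, 0.206), and on the lower side stood Ndufa7 (-0.05, 0.526) and Cox7a1 (-0.14, 0.699). On deposited TPM all 9 genes of complex III had positive values, against 63.7% of all genes. Without mitochondrial genes in the scaling 5 of the 9 did, against 39.4% of all genes. Dishes without overlap, higher in the exposed, numbered 5 of 37, 2 of 9 and 0 of 12, against 8.01% of all genes, and 0 in each without mitochondrial genes, against 2.22%.

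**Figure D4:**
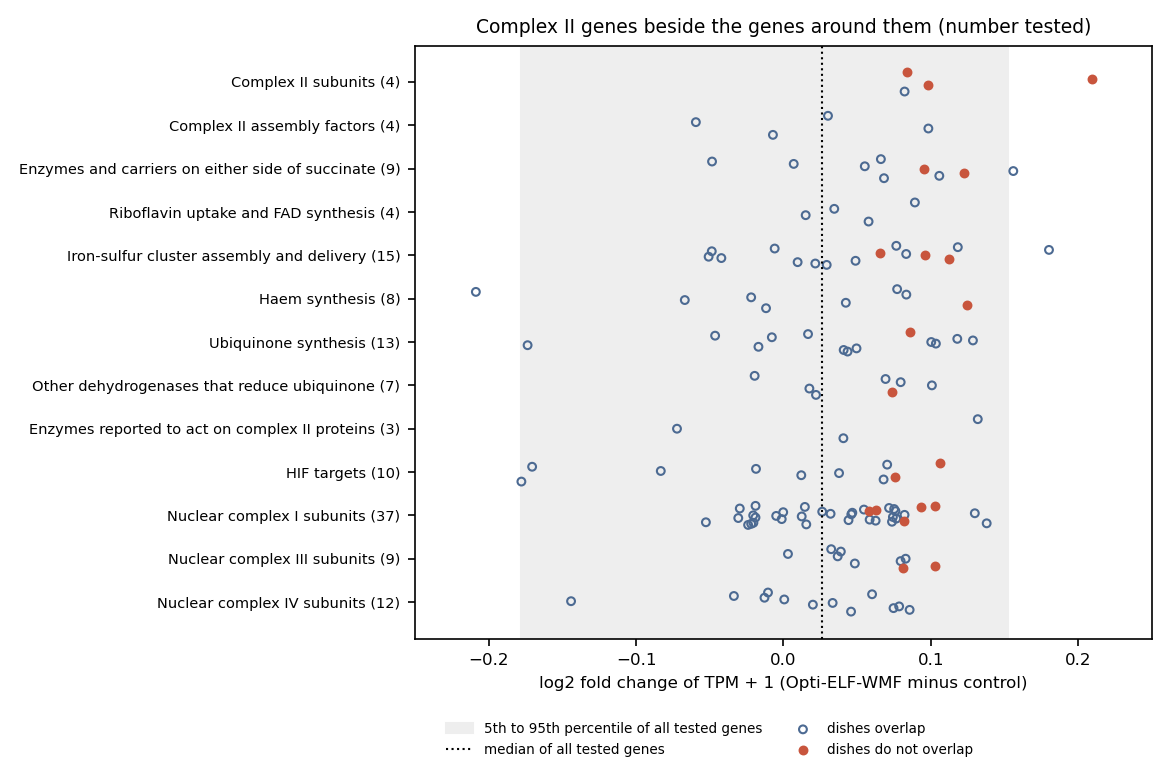
Log2 fold change of TPM + 1 (Opti-ELF-WMF minus control) of each tested gene in complex II and in the lists around it, 1 circle per gene, filled where the dishes of the conditions do not overlap; the grey band runs from the 5th to the 95th percentile of all genes tested (-0.18 to 0.15) and the dotted line is their median. Sdhc, at 0.21, lies beyond the band, and so do genes of other lists on either side of it, such as Ppox at -0.21.

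The identity of the cells was read from marker genes. Of 8 hepatocyte markers, Ttr (333 to 384 TPM), Apob, Hnf4a and Alb (46.1 to 58.2 TPM) were present. Serpina1a (4.64 to 7.08 TPM) and Apoa1 (3.12 to 5.29 TPM) were low. Tat and Cps1 were near 0, at no more than 0.24 and 0.04 TPM. Of the 6 tested, 0 were higher and 1 lower at an unadjusted limma p under 0.05, against 12.0% and 3.65% of all genes. The lower one was Alb (log2 fold change -0.15, limma adjusted p = 0.210). Without mitochondrial genes in the scaling, 0 were higher and 2 lower, against 3.31% and 7.77% of all genes. Of 4 markers of simple epithelia, the keratins Krt8 (log2 fold change 0.07, limma adjusted p = 0.194) and Krt18 (0.09, 0.166) had higher exposed dishes without overlap on deposited TPM and overlapped under the other 3 scalings. Cdh1 overlapped (0.02, limma adjusted p = 0.707) and Epcam reached at most 0.13 TPM. The sum of the 4, nearly all of it from the keratins, ran from 4203 to 4393 TPM in control and from 4475 to 4684 TPM in exposed dishes. The sum of 3 biliary markers was 1203 to 1290 and 1218 to 1339 TPM, with Krt19 between 1101 and 1244 TPM. Fibroblast and stellate markers summed to at most 1.85 TPM, leukocyte markers to at most 2.34 TPM and endothelial markers to at most 0.08 TPM, with Adgre1 and Cdh5 at 0 throughout. Col1a2, a fibroblast collagen, read 0.28 to 0.41 TPM in control dishes 1 to 3 and at most 0.02 TPM in control dish 4 and all exposed dishes. The part of epithelial marker levels or of mitochondrial share in the values of complex II was not tested.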

How the data were processed

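The authors prepared stranded poly(A) libraries and sequenced them as paired-end reads of 150 bases. Per the submitters' processing notes, reads went through Trimmomatic 0.39, STAR 2.7.4a and RSEM 1.3.3 on mm10. The annotation release and the strand setting of the counting were not given in the sources used here. The authors deposited TPM, 1 table per dish, scaled to a fixed total, so depth is unknown and no counting interval is given.

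Genes with TPM of at least 1 in at least 4 dishes were tested with limma 3.58.1 (lmFit, eBayes with a trend) in R 4.3.3 on log2(TPM + 1), a scale that understates differences of low genes, with Benjamini-Hochberg adjustment at 0.05. The script was tested on simulated data. Ratios were compared by exact permutation over 70 assignments. Positions came from GENCODE M21 on GRCm38 (55141 identifiers matched), and near-identical copies needed 95% identity over 80% of the shorter transcript.

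The 8 members and all lists were chosen with earlier results of these data known. Named genes were the members, neighbours starting within 1000 bases, copies, the gene with the smallest p in each direction of each list, and the 5 genes most like the subunit mean. A gene covered by this rule is not reported here. Alternatives covered pseudocount, abundance limit, scaling, trend, copies, a replicate block and dropping single dishes. The labels give a number for each dish and do not say whether same-numbered dishes were paired.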

Additional observations from a re-analysis of the deposited data

Results flagged for a closer look

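In 84 groups of 4 dishes (each value in each condition), Dixon's rule set 3 dishes apart, where chance gives about 4.2. The log2 ratio of Sdhc to Sdhd in exposed dish 2 was -1.02, beside -1.11 to -1.10 in the other 3 exposed dishes. The log2 ratio of Sdhb to Sdha in exposed dish 1 was 0.026, beside -0.11 to -0.09 in the others, and this dish was the lowest in Sdha. Prodh in control dish 3 was at 9.44 TPM, beside 8.31 to 8.38 TPM in the other control dishes.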

How the results depend on the processing

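No member had an adjusted p under 0.05 under any alternative tried, and Sdha, Sdhb, Sdhc, Sdhd, Sdhaf2 and Sdhaf3 kept their direction in all of them. Sdhc ranged from 0.16 to 0.21 (adjusted p 0.115 to 0.234) outside of leaving out dishes. Sdhaf4 turned to -0.0025 with upper-quartile scaling and to -0.016 without mitochondrial genes. The number of genes with adjusted p under 0.05 was 2 with log2(TPM + 5), and 1 each with TPM of at least 1 in every dish, median-of-ratios scaling, upper-quartile scaling, rescaling without mitochondrial genes, and eBayes without a trend; none is a member. Genes higher with an unadjusted p under 0.05 numbered 673, 588 and 400 with the 3 scalings in that order, and genes lower 755, 801 and 940, beside 1451 and 443 on deposited TPM. The cause was not tested. With every gene above 0 TPM in at least 1 dish, 25413 genes were tested, of which 1733 (6.82%) were higher and 832 (3.27%) lower.

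Leaving out 1 dish at a time gave 0.05 to 0.12 for Sdha, 0.08 to 0.11 for Sdhb, 0.17 to 0.23 for Sdhc, 0.07 to 0.10 for Sdhd, -0.064 to 0.023 for Sdhaf1, 0.07 to 0.12 for Sdhaf2, -0.10 to -0.03 for Sdhaf3 and 0.0035 to 0.07 for Sdhaf4. Sdhb, Sdhc and Sdhd did not overlap in any of these. That outcome was fixed, since groups apart with every dish in stay apart when a dish is dropped. The ratio differences ran from -0.026 to 0.040 for Sdha/Sdhd, -0.016 to 0.030 for Sdhb/Sdha, 0.0012 to 0.04 for Sdhb/Sdhd, 0.09 to 0.16 for Sdhc/Sdha, 0.10 to 0.13 for Sdhc/Sdhb and 0.11 to 0.16 for Sdhc/Sdhd. Timm8b (-0.014 to 0.013), Cpsf7 (-0.022 to 0.011) and Prodh (-0.064 to 0.031) changed sign, and 0 to 2 genes had an adjusted p under 0.05.

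Same-numbered dishes did not deviate together (correlations -0.04 to 0.03). A fit with the replicate block gave Sdhc 0.21 and 0 genes with adjusted p under 0.05, and with it the ratios could not go below a sign-flip exact p of 0.125. Depth could not be read from TPM, and 4 dishes against 4 set the precision.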
